A study of Sus scrofa with 12 samples.

Results

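Pig embryonic stem cell (ESC) lines made from eggs activated without sperm were compared with an ESC line of a fertilised embryo (in vitro fertilisation, IVF), to find genes whose expression stood apart in the same direction in both parthenogenetic lines. A locus was taken when all 6 parthenogenetic RNA-seq libraries lay on one side of all 3 IVF libraries. Only annotated loci and their extended forms with a span of at least 1000 bp were eligible, which was 19192 of the 30012 loci in the deposited table. Of these, 13059 passed a filter on low values and 1680 stood apart (12.9%), 1011 with higher values in the parthenogenetic lines (7.74%) and 669 with lower values (5.12%). When an adjusted p under 0.05 was also required, 1379 loci remained (10.6%), 830 higher (6.36%) and 549 lower (4.2%), and "rose" and "fell" below are used of these loci alone.

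The series held 12 libraries of polyA RNA read as 100 bp paired ends, 3 from each of 4 groups. The groups were Parthenogenetic ESC-3 and Parthenogenetic ESC-7 (ESC3 and ESC7 below), IVF-derived ESC-11 (ESC11), and fibroblasts of a fetus at day 30, at passage 6. The 3 ESC lines shared one medium with 20 ng/mL FGF2, 5 ng/mL ActA, 1.5 µM CH and 2.5 µM IWR-1, grew on feeder cells, and were sorted for the surface antigen SSEA1 before RNA was taken. Each line is a single derivation, so 2 parthenogenetic lines faced 1 IVF line, and parental origin and line cannot be told apart. The libraries of a group are not said to come from separate cultures, so p-values measure only how libraries of a group spread, and that spread may be technical.

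A parthenogenetic embryo carries maternal chromosome sets and no paternal one. Imprinted genes are read from only 1 of the parental alleles, because marks laid down in egg or sperm silence the other, so a gene that is active only on the paternal copy has no active copy in such cells. Genes active only on the maternal copy have a pair of active copies there. Imprinted genes lie in clusters and many act on growth, the placenta and the brain.

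Pluripotency genes marked all 9 ESC libraries. The summed level of 15 core pluripotency genes was 3055 to 3107 FPKM in ESC3, 2778 to 2824 in ESC7 and 3077 to 3145 in ESC11, against 4.27 to 6.04 in fibroblasts. FPKM are fragment numbers scaled by transcript length and by library size, so levels of different genes can be set side by side. In bulk RNA, fewer cells of a type and less RNA per cell cannot be told apart. The summed level of 22 fibroblast and matrix genes was 455 to 522 in ESC3, 700 to 875 in ESC7 and 557 to 658 in ESC11, with ESC11 between the parthenogenetic lines, against 24083 to 24542 in fibroblasts. The median FPKM of eligible loci above 0 was 9.50 to 9.74 in the parthenogenetic and 9.13 to 9.25 in the IVF libraries. Among 10 Y-linked genes 3 were in the table and 0 passed the filter.

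Most of the loci that rose or fell differed by little. Among the 830 higher loci, 624 (75.2%) had a ratio of mean FPKM under 1.5, as had 412 of the 549 lower loci (75.0%). A ratio of at least 2 was reached by 105 higher and 75 lower loci, and a ratio of at least 10 by 18 and 21. On the log2(FPKM + 1) scale, 94 loci (0.72%) differed by at least 1, 47 in each direction. The median log2 difference over all 13059 loci was 0.02. The share of higher loci depended on scaling, as 708 higher and 671 lower loci were called after median-ratio scaling, 588 and 970 after quantile normalization, and 561 and 628 after scaling to the same sum. Called in the same direction with all 4 scalings were 99 of the 105 higher and 73 of the 75 lower loci with a ratio of at least 2, beside 304 of the 624 higher and 381 of the 412 lower loci with a ratio under 1.5.

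**Figure D1:**
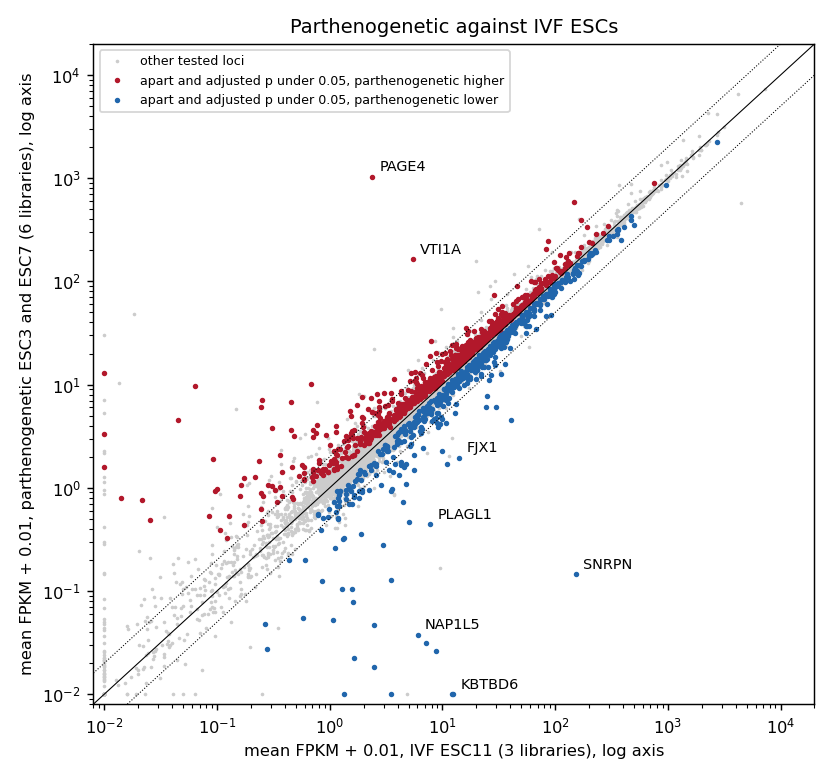
Mean FPKM in the 6 parthenogenetic libraries against the 3 IVF libraries, both on log axes after adding 0.01, 1 point per tested eligible locus. Red and blue points are the 830 higher and 549 lower loci, most of them close to the diagonal, and the named points are examples of those far from it.

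At the edge of the overlap rule the distance between the groups was close to 0. SNRK, just inside, had a lowest parthenogenetic value of 4.957 beside a highest IVF value of 4.956 FPKM. C6orf106, just outside, had a lowest parthenogenetic value of 85.22 beside a highest IVF value of 85.23 FPKM. At the limit on span, the locus named TSPAN6 on chromosome 13 was inside with 1078 bp and the locus named IFNAR2 was outside with 792 bp.

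Paternally expressed imprinted genes were 5 of the 12 named genes with the largest decreases, among symbols each taken on 1 locus. Loci left out by that rule included TSPAN6 on chromosome 13 (-2.92) and an ABT1 locus on chromosome 7 (-2.98). Both fell by more than PLAGL1 (-2.61) on the log2 scale. Of 34 listed genes the table held 26, the filter left 19, and of these 7 fell and 1 rose, beside 4.2% and 6.36% of all loci. The median log2 difference of the 19 was -0.58, beside 0.02 for all loci. The 7 that fell were SNRPN, SGCE, NAP1L5, PLAGL1, NNAT, PEG3 and DIRAS3, and the 1 that rose was BLCAP, whose known imprinting differs between its transcripts. The list is made of genes known for this parental bias, and its choice was made with earlier results of these data known. SNRPN, NAP1L5 and PLAGL1 were also among the markers given at the outset. SNRPN, SGCE, NAP1L5, PLAGL1 and DIRAS3 were under 1 FPKM in every parthenogenetic library. They thus passed the filter only through ESC11 or fibroblast libraries, and the shares are a description, not a test. The call of each of the 7 was kept whichever library was left out. All but SNRPN and PLAGL1 lie on loci that overlap another locus, so 2 remained when such loci were dropped.

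SNRPN encodes a core protein of the spliceosome and belongs to the imprinted cluster linked to Prader-Willi syndrome in humans. It lay on scaffold GL896379.1, at 22821 to 48725, on the minus strand. Its FPKM were 0.308, 0.0424 and 0.0776 in ESC3, 0.144, 0.0319 and 0.202 in ESC7, beside 159, 153 and 150 in ESC11. No parthenogenetic library came near an IVF library. An unnamed and unannotated locus on the same scaffold and strand, at 7595 to 19851, was not eligible, and was looked at after its values were seen. It had 0.0429 to 0.682 FPKM in the parthenogenetic libraries and 309, 297 and 324 in ESC11, a log2 difference of -7.86 ± 0.12 (limma, adjusted p = 4.8e-11).

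SGCE, epsilon-sarcoglycan, a membrane protein linked to the dystrophin complex, was read on 2 eligible loci of chromosome 9 and fell on both. The locus at 81472184 to 81486496 was listed at 0 in all 6 parthenogenetic libraries and had 11.1, 18.2 and 7.11 FPKM in ESC11. The locus at 81600250 to 81642854 had at most 0.0953 FPKM in a parthenogenetic library and 6.87, 8.69 and 10.9 in ESC11. The groups stood apart on both loci, and fibroblasts had 111 ± 11.7 (SD, n = 3) and 134.6 FPKM. CASD1, a sialic acid acetyltransferase gene whose locus spans the first one, had 16.0 ± 2.32 FPKM in parthenogenetic (SD, n = 6) and 15.4 ± 0.602 in IVF libraries (SD, n = 3) and its values overlapped. PEG10, the next gene of this cluster, lay on an unannotated locus and was not eligible.

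NAP1L5, a member of the nucleosome assembly protein family, sits at 139774241 to 139776175 on chromosome 8, within the span of HERC3. Its FPKM were listed at 0 in the 3 ESC3 libraries, were 0.0544, 0.0832 and 0.029 in ESC7, beside were 6.03, 5.93 and 6.08 in ESC11. The levels in ESC11 were above fibroblasts, which had 2.50 ± 0.447 (SD, n = 3). HERC3, on the opposite strand, had 31.6 ± 5.59 FPKM in parthenogenetic libraries (SD, n = 6), and its values overlapped with the 35.5 ± 0.411 of ESC11 (SD, n = 3).

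PLAGL1, a zinc-finger factor that restrains growth, lies at 23602459 to 23708359 on chromosome 1. It had 0.3 to 0.588 FPKM in the parthenogenetic libraries (median 0.451) and 7.98, 7.09 and 8.13 in ESC11. The difference was -2.61 in ESC3 and -2.60 in ESC7 on the log2 scale, so the lines lay level, at 0.02 ± 0.08 between them (limma, adjusted p = 0.905). DIRAS3, a small GTPase related to RAS that inhibits growth, had 0.0405 to 0.253 FPKM (median 0.0575) beside 1.31, 1.16 and 1.33 in ESC11. Its highest parthenogenetic value was far below the lowest IVF value, and fibroblasts had 3.91 ± 0.387 (SD, n = 3).

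NNAT, the small membrane protein neuronatin, and BLCAP, the gene in whose span it lies, moved in opposite directions. NNAT (chromosome 17, 46041861 to 46047799, plus strand) had 1.50 to 2.09 FPKM in the parthenogenetic libraries (median 1.61) and 11.1, 10.7 and 11.4 in ESC11. The parthenogenetic level was low but above 0 in each library. BLCAP (46022662 to 46050031, minus strand) had 20.7, 20.5 and 21.8 FPKM in ESC3, 24.2, 22.6 and 23.5 in ESC7, beside 19.3, 19.5 and 17.9 in ESC11. Its rise was 0.22 ± 0.04 on the log2 scale (limma, adjusted p = 0.00642), and ESC3 alone did not pass against ESC11 (adjusted p = 0.0682). The loci overlap and the strand setting of the counting was not stated, so fragments of this pair may be shared between them.

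PEG3, a large zinc-finger gene on chromosome 6, fell in both lines and to a different extent. Its FPKM were 2.51, 2.61 and 3.14 in ESC3, 0.416, 0.398 and 0.403 in ESC7, beside 4.73, 4.46 and 4.55 in ESC11. ESC3 lay between the other lines, and ESC7 was lower than ESC3 by -1.41 ± 0.07 on the log2 scale (limma, adjusted p = 2e-07). MAGEL2, MKRN3 and MEST went further, with ESC7 below and ESC3 above all ESC11 values, so they overlapped and were not taken. MAGEL2, an adaptor of ubiquitin ligases from the Prader-Willi cluster, had 19.3, 22.5 and 22.3 FPKM in ESC3, 0.463, 0.742 and 0.583 in ESC7, beside 15.4, 15.6 and 13.6 in ESC11. MKRN3, a ring-finger gene of the same cluster, had 2.72, 2.04 and 2.92 FPKM, then 0 to 0.0388, and then 1.78, 1.73 and 2.02. MEST, with a hydrolase fold, had 13.7, 13.3 and 13.9 FPKM in ESC3, 2.14, 2.07 and 2.26 in ESC7, beside 13, 12.6 and 11.8 in ESC11. In each of these 3 genes only ESC7 departed downward from ESC11, and ESC3 was higher than ESC11 for MAGEL2 by 0.50 (limma, adjusted p = 0.00316). The remaining 8 tested genes overlapped and lay between -0.07 for INPP5F and 0.26 for RASGRF1 on the log2 scale. DLK1, RTL1, IGF2 and LRRTM1 were below the filter.

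**Figure D2:**
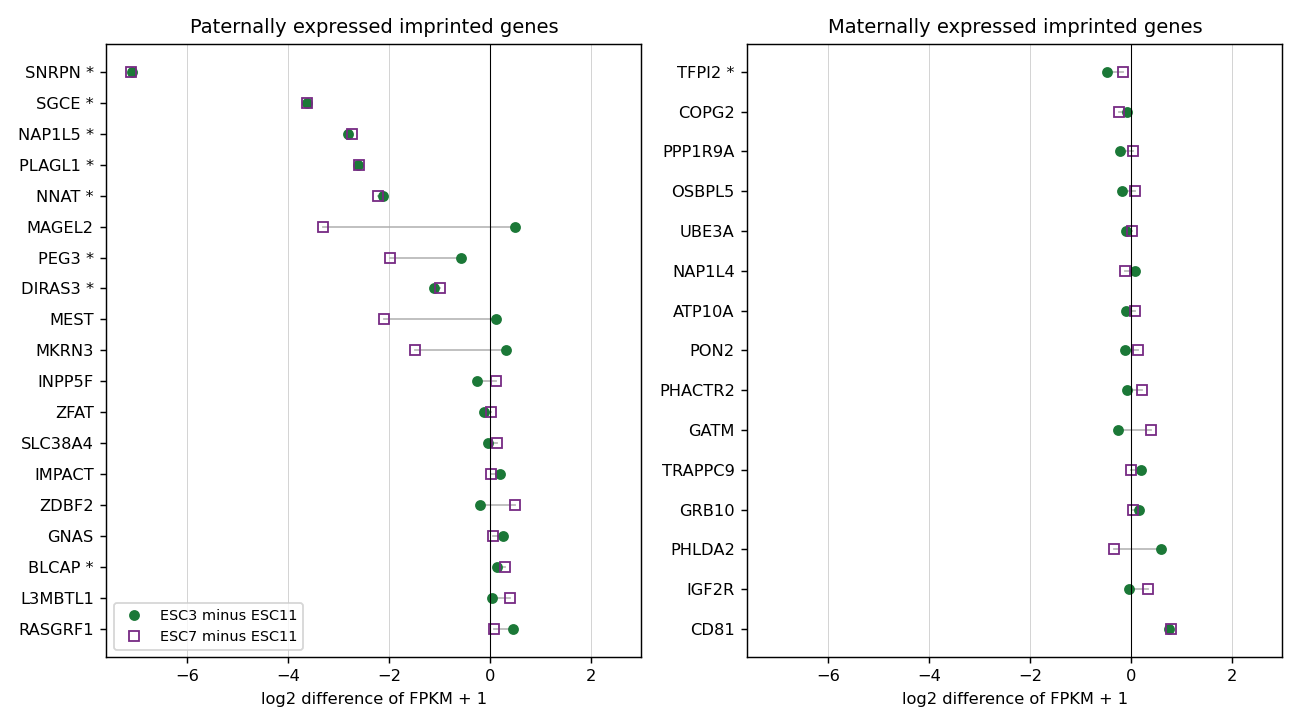
Log2 difference of FPKM + 1 from ESC11 for the tested imprinted genes, as filled circles for ESC3 and open squares for ESC7, with an asterisk at loci that stood apart with an adjusted p under 0.05. SNRPN, SGCE, NAP1L5, PLAGL1, NNAT and DIRAS3 have both symbols far to the left, MAGEL2, MEST and MKRN3 only the square, while CD81 has both symbols to the right and PHLDA2 has them on opposite sides of 0.

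Of 31 listed maternally expressed imprinted genes the table held 22 and the filter left 15. Of these 0 rose and 1, TFPI2, fell (limma), beside 6.36% and 4.2% of all loci, and their median log2 difference was 0.01. At an unadjusted p under 0.05, 1 was higher and 2 were lower. CD81, a tetraspanin read on scaffold GL896479.1, was the only one of the 15 with all 6 parthenogenetic libraries above ESC11. Its FPKM were 3194, 1822 and 2044 in ESC3, 2733, 1779 and 2595 in ESC7, beside 1536, 1327 and 1206 in ESC11. The difference of 0.77 ± 0.27 had an adjusted p of 0.0779 in limma, and 0.0449 when the fit held the 9 ESC libraries alone, and it turned to -0.02 after quantile normalization. TFPI2, an inhibitor of serine proteases, had 0.502 to 1.2 FPKM (median 1.05) beside 1.35, 1.63 and 1.21 (adjusted p = 0.0393), and its adjusted p was 0.0518 to 0.15 without any 1 of 8 libraries, the exception being ESC3 library 3. UBE3A, a ubiquitin ligase, IGF2R, the receptor that clears IGF2, and GRB10, a signalling adaptor, overlapped between the groups, at -0.04, 0.15 and 0.10 on the log2 scale.

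Outside the imprinted genes, KBTBD6, an adaptor of the CUL3 ubiquitin ligase (chromosome 11, 26509194 to 26510909), was listed at 0 in all 6 parthenogenetic libraries and had 12.8, 11.6 and 12.9 FPKM in ESC11. KBTBD7, its neighbour and close relative, had 10.1 ± 0.929 in parthenogenetic (SD, n = 6) and 9.67 ± 0.704 in IVF libraries (SD, n = 3). The 2 genes are similar in sequence and the handling of fragments that map to several places was not stated, so the split between them is uncertain. NT5DC1, a nucleotidase-domain protein on chromosome 1, had 5.63 to 6.41 FPKM (median 5.98) beside 23.9, 24.9 and 24.9 in ESC11. It fell by 1.87 ± 0.04 on the log2 scale (limma, adjusted p = 2.96e-10), in both lines to about the same level. SLC24A2, a sodium, calcium and potassium exchanger, had 1.27, 1.74 and 1.33 FPKM in ESC3, 2.78, 3.83 and 2.75 in ESC7, beside 9.91, 9.89 and 9.78 in ESC11. FUT4, which builds the SSEA1 epitope used to sort the cells, had 0.0531 to 0.452 FPKM in the parthenogenetic libraries and 3.11, 2.91 and 2.88 in ESC11. It was the only one of 16 SSEA1 and surface genes that passed (6.25%), beside 4.2% of all loci that fell and 6.36% that rose.

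A run of neighbouring genes on chromosome 2 was lower in both lines. FJX1, a secreted protein related to the fly planar polarity kinase four-jointed, lies at 27783602 to 27786662, where it overlaps the start of PAMR1, a secreted protease-like protein, on the opposite strand. FJX1 had 1.85 to 2.12 FPKM (median 1.94) beside 13, 14.9 and 14.4 in ESC11. PAMR1 had 0.372 to 0.590 FPKM (median 0.431) beside 5.04, 5.57 and 4.66. TRIM44, at 27633860 to 27737927, had 1.73, 1.60 and 1.75 FPKM in ESC3, 0.417, 0.464 and 0.421 in ESC7, beside 4.94, 4.60 and 4.78 in ESC11, and LDLRAD3, further along at 27156789 to 27490459, differed by -0.65 (limma, adjusted p = 0.0045). All 4 genes stood apart, with the largest difference at FJX1 (-2.35 ± 0.05, adjusted p = 5.53e-10). FJX1 and PAMR1 share bases on opposite strands, and whether fragments of one were counted on the other cannot be told apart without the strand setting.

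Other loci that rose or fell also had neighbours that did so. This is given as a description without a test, and pairs among all tested loci were not counted. Of 396 pairs of adjacent loci that rose or fell and lay within 250 kb, 233 shared a direction. With 830 of the 1379 loci higher, unlinked pairs would often share a direction too. Of the 16 pairs in which both differed by at least 0.8 on the log2 scale, 15 shared a direction. Several of the 15 are pairs of loci with 1 symbol, such as those of ABCA1, CCT6B, TNFRSF10B, CYP2C18 and SGCE, so they are not separate genes. CPQ, a plasma carboxypeptidase, and SDC2, a heparan sulphate proteoglycan, are neighbours on chromosome 4, and both were named after their values were seen. CPQ was listed at 0 in all 6 parthenogenetic libraries and had 1.15, 1.49 and 1.32 FPKM in ESC11. SDC2 had 0 to 0.15 FPKM beside 1.33, 1.79 and 1.58. Both are low in ESC11 next to fibroblasts, where CPQ had 19 to 20.2 and SDC2 203 to 211 FPKM; the part of residual fibroblast-like RNA in these values was not tested, and the summed fibroblast and matrix level of ESC11 given above lies between those of the parthenogenetic lines.

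MX1 and QTRT1 fell in the joint comparison and were far lower in ESC7 than in ESC3. MX1, an antiviral GTPase induced by interferon, had 22.2, 23.7 and 24.1 FPKM in ESC3, 1.83, 2.39 and 2.31 in ESC7, beside 32.2, 33.9 and 32.9 in ESC11. QTRT1, the catalytic subunit that inserts queuine into transfer RNA, had 7.14, 8.59 and 7.36 FPKM in ESC3, 0, 0.21 and 0.0393 in ESC7, beside 8.66, 9.11 and 9.80 in ESC11. ESC3 was close to ESC11 for QTRT1 and did not pass on its own (limma, adjusted p = 0.0991), so the joint call of QTRT1 rests on ESC7. Of 15 interferon and RNA sensor genes, MX1 and MX2 fell (13.3%) and OAS2 rose (6.67%), beside 4.2% and 6.36% of all loci. MX2 did not pass in ESC7 alone (limma, adjusted p = 0.115), nor OAS2 in ESC3 alone (adjusted p = 0.0664). MX2 also did not pass without ESC11 library 1 (limma, adjusted p = 0.0693) or 3 (adjusted p = 0.0523).

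**Figure D3:**
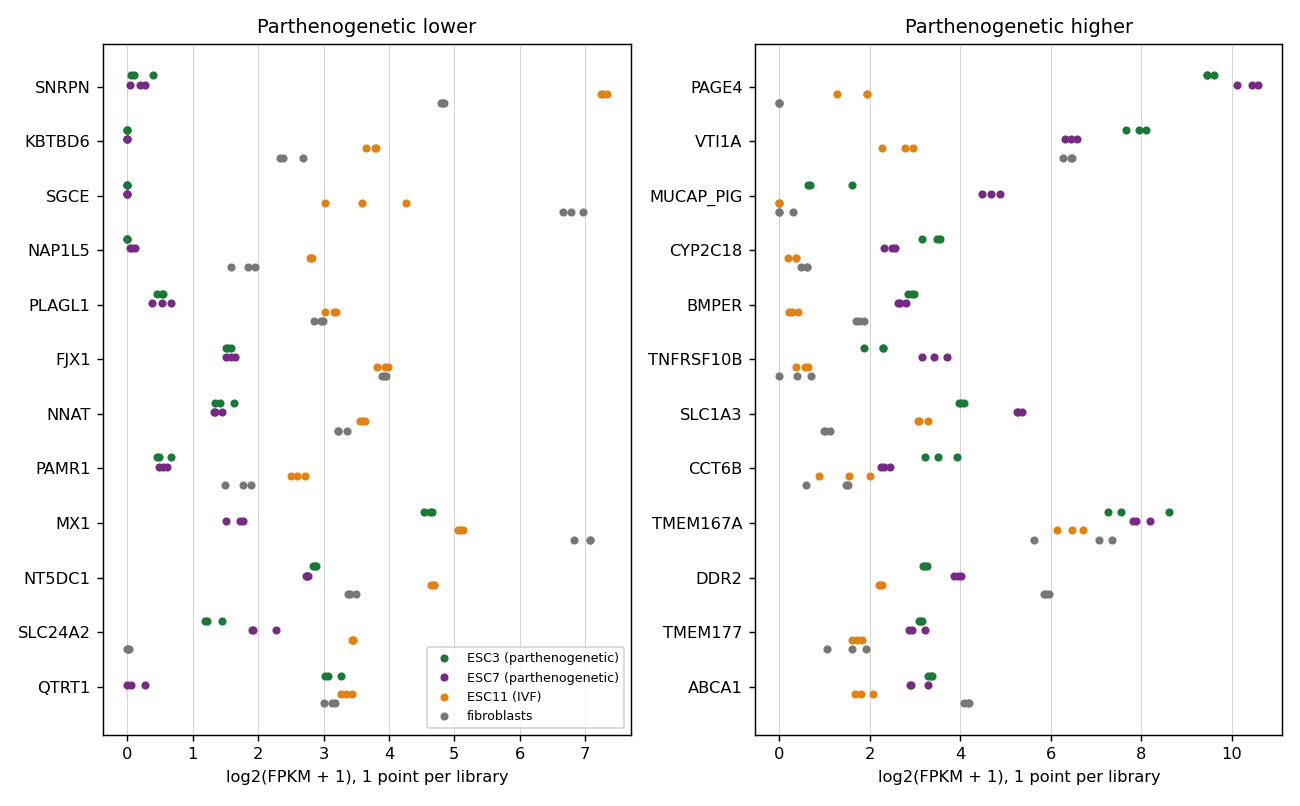
Log2(FPKM + 1) of the 12 genes with the largest fall and the 12 with the largest rise among symbols with a mean of at least 5 FPKM in the higher group, 1 point per library, in green for ESC3, purple for ESC7, orange for ESC11 and grey for fibroblasts. Each symbol was taken on the locus with the highest ESC mean. The green and purple points lie on one side of the orange points in each gene, and are far from each other for MX1, QTRT1 and MUCAP_PIG.

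Among the increases, PAGE4 was by far the largest. PAGE4, a small cancer/testis protein whose gene lies at 48522892 to 48530860 on chromosome X, had 697, 697 and 778 FPKM in ESC3, 1536, 1385 and 1100 in ESC7, beside 1.42, 2.86 and 2.82 in ESC11. All 6 values were far above ESC11, and ESC7 was above ESC3 by 0.88 ± 0.17 (limma, adjusted p = 0.00266). USP27X and CLCN5, genes to its sides, overlapped between the groups, with mean FPKM of 10.9 and 12.7 in parthenogenetic and 12.4 and 10.6 in IVF libraries. A list of X-linked MAGE, PAGE and other testis genes left 4 that were tested, of which 3 rose, PAGE4, MAGED1 and MAGED2, beside 6.36% of all loci. PAGE4 was among the markers given at the outset, and MAGED1 and MAGED2 are expressed in many tissues. MAGED2, which acts in salt transport in the kidney, had 195, 214 and 207 FPKM in ESC3, 160, 151 and 154 in ESC7, beside 112, 110 and 106 in ESC11. MAGED1, an adaptor in neurotrophin signalling, had 118 to 197 FPKM (median 152) beside 90.0, 106 and 97.4.

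VTI1A and CYP2C18 rose in both lines and were higher in ESC3 than in ESC7 (limma, adjusted p = 8.3e-05 and 0.000105). The locus named VTI1A (chromosome 14, 133941045 to 134028252, minus strand) had 202, 274 and 245 FPKM in ESC3, 93.9, 78.2 and 86.6 in ESC7, beside 3.84, 5.81 and 6.80 in ESC11. A plus-strand locus with the same symbol that overlaps it, at 133772065 to 134026344, had 13.6 ± 1.44 FPKM in parthenogenetic (SD, n = 6) and 16.0 ± 1.00 in IVF libraries (SD, n = 3) and did not pass (limma, adjusted p = 0.104). The rise was thus not seen on both loci with the name of this vesicle-fusion protein. A plus-strand locus named ZDHHC6, at 133771946 to 134046067, spans both of them and rose too. Its mean FPKM was 8.51 in ESC3, 5.30 in ESC7 and 2.73 in ESC11. The other ZDHHC6 locus, on the minus strand at 133754641 to 133772061, fell, at -0.33 on the log2 scale. The strand setting was not stated, so how fragments were divided among these loci is uncertain. CYP2C18, a cytochrome P450, had 7.87, 10.24 and 10.8 FPKM in ESC3, 4.65, 3.98 and 4.85 in ESC7, beside 0.286, 0.136 and 0.302 in ESC11. Another CYP2C18 locus within its span, at 116027437 to 116250100, had 2.53 to 6.65 FPKM beside 0 to 0.0684. P450 genes of this family are close copies in 1 cluster, and how fragments were divided among them is uncertain.

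BMPER, a secreted regulator of bone morphogenetic proteins on chromosome 18, had 5.14 to 6.92 FPKM (median 6.06) beside 0.327, 0.169 and 0.211 in ESC11. It rose by 2.50 ± 0.07 on the log2 scale (limma, adjusted p = 2.9e-09), in ESC3 by 2.61 and in ESC7 by 2.39. DDR2, a receptor kinase for collagen, had 8.67, 8.10 and 8.28 FPKM in ESC3, 13.6, 14.4 and 15.1 in ESC7, beside 3.84, 3.68 and 3.62 in ESC11. TNFRSF10B, a receptor for the death ligand TRAIL, had 3.93, 3.90 and 2.66 FPKM in ESC3, 12.1, 7.84 and 9.76 in ESC7, beside 0.547, 0.491 and 0.284 in ESC11. Both rose in each line, with ESC7 above ESC3 by 0.71 and 1.27 on the log2 scale (limma, adjusted p = 2.7e-06 and 0.000655), and fibroblasts had 58.7 ± 2.51 FPKM for DDR2 and 0.311 ± 0.312 for TNFRSF10B (SD, n = 3). SLC1A3, a glutamate transporter, had 16.0, 14.7 and 15.1 FPKM in ESC3, 37.5, 37.0 and 39.9 in ESC7, beside 7.54, 8.78 and 7.41 in ESC11. ABCA1, which exports cholesterol, had 6.38 to 9.37 FPKM (median 8.71) beside 2.20, 3.17 and 2.51.

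A mucin region on chromosome 5 was highest in ESC7, and both lines lay above ESC11. The locus named MUCAP_PIG at 74809226 to 74812088 had 0.559, 0.597 and 2.07 FPKM in ESC3, 28.3, 21.2 and 24.4 in ESC7, beside was listed at 0 in ESC11. A second locus with this symbol had 1.38, 1.35 and 1.28, then 19.5, 17.5 and 16.8, and then 0, 0.0122 and 0.148. MUC19, a gel-forming mucin on an unannotated locus near by, had 1.06, 0.519 and 0.484 FPKM, then 16.5, 20.0 and 20.7, and then 0 to 0.104. The 3 loci shared the order ESC7, ESC3, ESC11. CNTN1, an adhesion molecule of neurons whose locus overlaps the second one on the opposite strand, went the other way, with 0.487 to 1.52 FPKM beside 3.47, 3.75 and 3.30.

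CCT6B, a testis form of a chaperonin subunit, TMEM177, a mitochondrial membrane protein, and TMEM167A, a Golgi protein, completed the named increases. TMEM177 had 6.25 to 8.33 FPKM (median 7.56) beside 2.05, 2.55 and 2.29. CCT6B had 10.4, 14.2 and 8.38 FPKM in ESC3, 3.96, 4.45 and 3.75 in ESC7, beside 0.829, 1.92 and 3.02 in ESC11, with ESC7 alone not passing (limma, adjusted p = 0.0655). TMEM167A had 153 to 391 FPKM (median 230) beside 103, 69.7 and 86.9, and its highest and lowest parthenogenetic values were both in ESC3. Its adjusted p in limma was 0.0256, and without ESC11 library 1, 2 or 3 it was 0.0559, 0.092 or 0.0758.

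Changes near 2-fold were counted as loci that stood apart, had an adjusted p under 0.05, a ratio of mean FPKM from 1.5 to 2.5 and a mean of at least 5 FPKM in the higher group. There were 75 higher (0.574%) and 50 lower loci (0.383%), 125 in all (0.957%). With all 4 scalings 68 of the 75 and 49 of the 50 were called the same way.

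Of the increases near 2-fold, GLO1 had the smallest adjusted p. GLO1, glyoxalase I, which removes methylglyoxal made in glycolysis, had 17.6, 17.1 and 17.6 FPKM in ESC3, 23.5, 23.0 and 23.1 in ESC7, beside 8.99, 8.66 and 8.74 in ESC11. It rose by 1.11 ± 0.03 on the log2 scale (limma, adjusted p = 1.38e-09). OAT, ornithine aminotransferase, had 241, 240 and 240 FPKM in ESC3, 441, 440 and 431 in ESC7, beside 193, 195 and 192 in ESC11. Its ratio of 1.75 thus joins a small rise in ESC3 with one above 2-fold in ESC7. PELI3, a ubiquitin ligase of innate immune signalling, had 10.3 to 17.2 FPKM (median 13) beside 5.28, 6.21 and 5.46. PWP1, which acts in ribosome synthesis, had 52.5 to 64.3 FPKM (median 56.8) beside 34.7, 32.8 and 33.7. RAI14, an actin-binding protein, had 21.7 to 23.5 FPKM (median 22.5) beside 14.2, 12.1 and 13.3, and SLC19A3, a thiamine transporter, had 22.1 to 30.8 (median 26.9) beside 17.9, 17.0 and 18.1. PWP1, RAI14 and NUDCD1 (median 53.4 beside 31.4, 30.8 and 30.8 FPKM) differed between the lines by less than from ESC11. ESC7 minus ESC3 was -0.22, -0.08 and -0.17 on the log2 scale. A second locus named NUDCD1, also on chromosome 4, fell, at -0.56 from ESC11. WDR13, on the X chromosome, had 46.5, 46.9 and 44.3 FPKM in ESC3 and 23.0, 23.3 and 24.4 in ESC7 beside 21.1, 22.2 and 22.1 in ESC11, so ESC7 stood apart by little and did not pass on its own (adjusted p = 0.0747).

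TSPAN6, a tetraspanin, was read on 2 loci that moved in opposite directions. Its locus on chromosome X (90165031 to 90174389) had 83.2, 90.3 and 88.0 FPKM in ESC3, 97.0, 86.5 and 94.4 in ESC7, beside 44.2, 42.7 and 49.9 in ESC11. The locus of 1078 bp with the same symbol on chromosome 13 (90213894 to 90214971) had 3.60 to 5.17 FPKM beside 41.4, 41.0 and 39.6, so it fell while the other rose. Summed over both loci the level was 94.4 ± 5.44 FPKM in parthenogenetic (SD, n = 6) and 86.3 ± 3.00 in IVF libraries (SD, n = 3). Among the loci that rose or fell, 53 symbols were on several loci, and 10 of these had loci in both directions. FARP1, ABT1, NUDCD1 and ZDHHC6 were among the 10. ABT1 had 23.9 to 31.2 FPKM beside 19, 20.6 and 19.6 on 1 locus of chromosome 7, and 0 to 0.0643 beside 7.44, 6.39 and 7.42 on the other.

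Among the decreases near 2-fold, H1F0, a linker histone of slowly dividing cells, had 9.63 to 12.6 FPKM (median 10.9) beside 26.3, 24.7 and 26.2 in ESC11. It fell by 1.16 ± 0.04 on the log2 scale (limma, adjusted p = 4.31e-08). PLS3, an actin-bundling protein of the X chromosome, had 45.3 to 51.1 FPKM (median 46.9) beside 87.7, 91.8 and 96.6. In both genes the lines differed from each other by less than from ESC11, with ESC7 minus ESC3 at -0.27 and 0.01 on the log2 scale. KIT, the receptor for stem cell factor, had 33.1, 31.6 and 33.3 FPKM in ESC3, 58.0, 59.8 and 63.3 in ESC7, beside 84.0, 80.3 and 85.2 in ESC11. PDHA1, the X-linked catalytic subunit of pyruvate dehydrogenase, had 194, 193 and 208 FPKM in ESC3, 310, 304 and 309 in ESC7, beside 376, 381 and 385 in ESC11. KIT and PDHA1 thus shared an order, ESC3 lowest and ESC7 between. ABCC3, an exporter of organic anions, had the reverse order, with 21.4, 22.9 and 20.1 FPKM in ESC3, 8.38, 9.20 and 10.4 in ESC7, beside 29.1, 30.1 and 29.0 in ESC11. SLC12A2, a sodium, potassium and chloride cotransporter, had 20.5 to 25 FPKM (median 22.4) beside 39.0, 38.9 and 42.1. WRB, a receptor for tail-anchored proteins, ST6GALNAC6, a sialyltransferase, and CPNE2, a copine, had ratios of 1.76, 1.56 and 1.58. A pair of neighbouring loci named TAP, whose name is that of the peptide transporter of antigen presentation, fell together on chromosome 7, the stronger of them with 30.6 to 45.3 FPKM beside 71.2, 66.7 and 66.6.

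**Figure D4:**
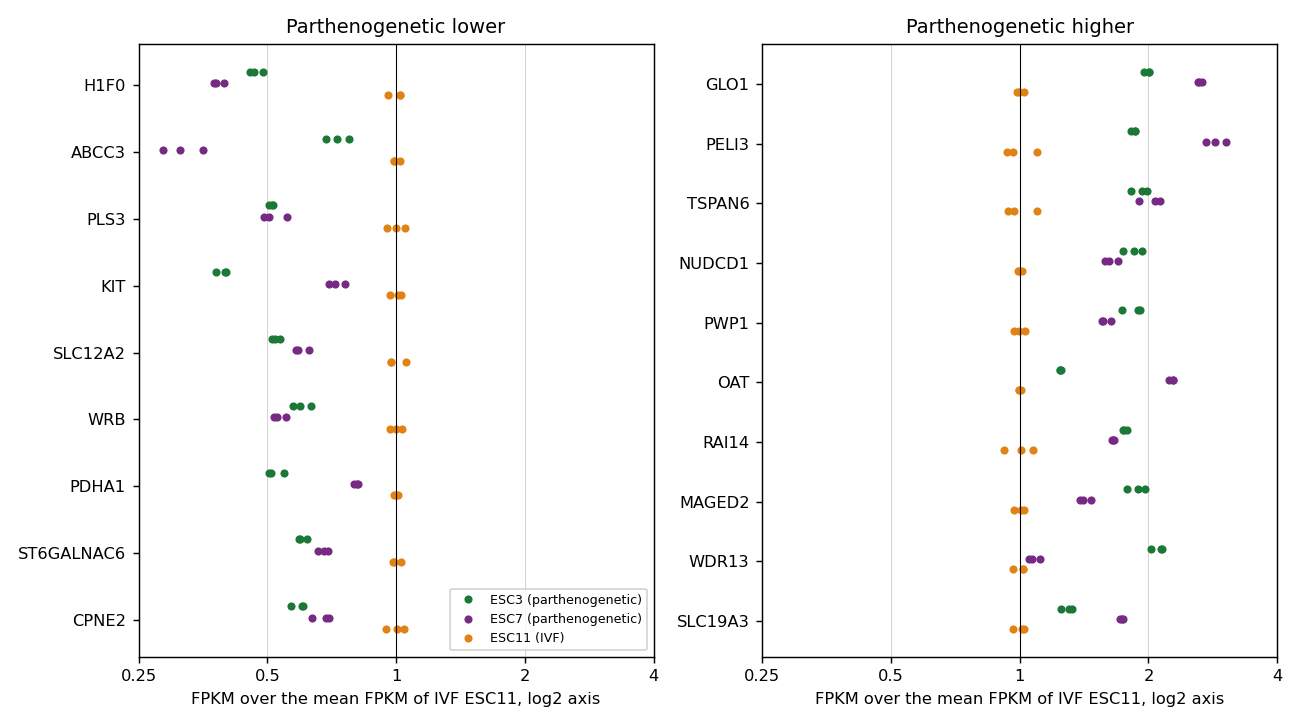
FPKM of each ESC library divided by the mean FPKM of ESC11, on a log2 axis, for 9 lower and 10 higher genes near 2-fold, in green for ESC3, purple for ESC7 and orange for ESC11. The lines lie together for PLS3, TSPAN6 and RAI14 and apart for KIT, PDHA1, OAT and WDR13.

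Lists of genes by pathway are given as counts beside the 6.36% higher and 4.2% lower of all loci. A gene counted here need not have passed in each line alone. Of 15 core pluripotency genes, DPPA4 rose and DNMT3B fell. DPPA4, a chromatin protein of pluripotent cells, had 4.46, 5.06 and 4.57 FPKM in ESC3, 7.60, 7.13 and 7.72 in ESC7, beside 3.09, 2.94 and 2.07 in ESC11. DNMT3B, a DNA methyltransferase, had 782 to 927 FPKM (median 859) beside 963, 965 and 971, and its limma adjusted p of 0.0223 became 0.0676, 0.0604 and 0.0747 without ESC11 library 1, 2 and 3. None of 7 naive pluripotency genes was among the loci that stood apart. Of 11 DNA methylation genes TET3 rose and DNMT3B fell, and TET3 was not called after quantile normalization. Of 16 Polycomb genes JARID2 and EED fell, EED not passing without ESC11 library 1, 2 or 3 (limma, adjusted p = 0.0867, 0.0787 and 0.0661). JARID2, a targeting subunit, had 70.1 to 88.4 FPKM (median 77.0) beside 96.2 to 102.

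Of 15 targets of FGF and MEK signalling, 4 fell and 0 rose, with a median log2 difference of -0.22 beside 0.02 for all loci. ETV1, ETV4 and ETV5, ETS factors induced by FGF, made up most of these. ETV5 had 44.5 to 50.0 FPKM (median 46.4) beside 57.6, 60.1 and 60.2 in ESC11, ETV4 had 45.9, 46.1 and 49.5 in ESC3 and 59.4, 59.6 and 60.2 in ESC7 beside 64.0, 67.5 and 64.0, and ETV1 had 18.9 to 23.6 (median 20.6) beside 30.7, 26.9 and 25.5. ETV4 was close to ESC11 in ESC7 (limma, adjusted p = 0.048). The fourth, FOSL1, an AP-1 subunit, did not pass without ESC11 library 2 (adjusted p = 0.0884) or 3 (adjusted p = 0.0607). FOS, another AP-1 subunit, was 1 of 3 genes of the 14 immediate early and heat shock genes that fell, with 89.3 to 130 FPKM (median 103) beside 157, 154 and 135, together with HSPA5 and HSPA8. HSPA8, a heat shock protein, had 671 FPKM in ESC11 library 1 and 416 and 422 in the others, and its adjusted p of 0.0295 rose to between 0.0504 and 0.0566 without any 1 of the ESC3 libraries or without ESC7 library 1 or 2.

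Of 15 genes of the insulin-like growth factor axis, 4 fell and 1 rose. PLAGL1, 1 of the 4, was a marker given at the outset and was already counted among the paternally expressed genes. IGF2BP1, an RNA-binding protein, fell too, with 94.7 to 103 FPKM in ESC3 and 67.4 to 79.1 in ESC7 beside 112, 114 and 115 in ESC11. The carriers IGFBP4 and IGFBP6 also fell, but did not pass in each line alone. IRS1, the insulin receptor substrate, rose. Of 15 WNT genes 1 rose, WNT5A, with 0.913 to 2.02 FPKM (median 1.88) beside 0.897, 0.772 and 0.702, which was not called after quantile normalization or scaling to the same sum. Of 14 BMP genes 1 rose, BAMBI, and of 11 NODAL and activin genes 0 passed.

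In metabolism, of 16 glycolysis genes 3 fell, LDHA, TPI1 and SLC2A3, and 1 rose, HK1. LDHA, a lactate dehydrogenase subunit, had 110, 107 and 108 FPKM in ESC3, 98.0, 88.6 and 91.3 in ESC7, beside 134, 135 and 134 in ESC11 (-0.42 ± 0.04 on the log2 scale, limma, adjusted p = 2.24e-05). SLC2A3, the glucose transporter GLUT3, had 244 to 262 FPKM (median 255) beside 288, 292 and 294. HK1, a hexokinase, was not called after quantile normalization. Of 15 cholesterol synthesis genes 3 rose, HMGCS1, MVK and PMVK. HMGCS1, an early enzyme of the pathway, had 104 to 108 FPKM beside 94.4, 91.2 and 89.0, whereas MVK was not called after scaling to the same sum and PMVK not after any of the other 3 scalings, nor without 7 of the 9 libraries in turn, the exceptions being ESC3 library 1 and ESC7 library 3 (limma, adjusted p = 0.0502 to 0.131). Of 24 respiratory chain genes 1 rose, UQCRFS1, not called after quantile normalization or scaling to the same sum. Of 14 cytochrome P450 and detoxification genes 3 rose, CYP2C18, CYP26A1 and HMOX1, and GSTO1 fell.

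Among markers of other cell types, of 22 fibroblast and matrix genes 2 rose, TWIST2 and FN1. Of 14 HOX genes 2 rose, HOXC6 and HOXD8. Whatever their adjusted p, 5 of the 14 stood apart upward, beside 7.74% of all loci. TWIST2, a factor of mesenchyme, had 2.91 to 5.63 FPKM (median 3.52) beside 1.19, 1.08 and 1.10, and 13.7 ± 0.641 in fibroblasts (SD, n = 3). FN1, fibronectin, was called by a small margin, since its limma adjusted p of 0.0476 became 0.0536 to 0.136 without any 1 of 8 libraries, the exception being ESC7 library 1, and it was not called after the other 3 scalings. HOXC6 did not pass without ESC11 library 1 (adjusted p = 0.0549) or 3 (adjusted p = 0.0555). HOXD8 had 0.669 to 1.01 FPKM beside 0.25, 0.41 and 0.0833, a low level in all ESCs, and passed the filter only through the fibroblast libraries. The summed fibroblast level of ESC3 was below that of ESC11, while TWIST2 was higher in ESC3; the part of fibroblast RNA in these values was not tested. Of 13 epithelial, 7 neural and 2 mesendoderm genes 0 passed, of 7 trophectoderm genes TEAD4 fell, of 7 endoderm genes FOXA1 rose, and of 3 germ cell genes DND1 rose and KIT fell. The neural sum was 283 to 317 FPKM in ESC3, 75.5 to 87.3 in ESC7 and 175 to 185 in ESC11, so the parthenogenetic lines lay on opposite sides. Of 21 cell cycle genes 3 fell, CCNB1, CCNE1 and MKI67, and 1 rose, MCM2, which was not called after quantile normalization or scaling to the same sum. CCNE1, a cyclin, did not pass without any 1 of 8 libraries, the exception being ESC7 library 3 (limma, adjusted p = 0.0597 to 0.167), nor after scaling to the same sum. MKI67, the proliferation antigen, had 23.8 to 26.4 FPKM (median 25.1) beside 29.3, 30.5 and 28.8.

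The parthenogenetic lines differed from each other on many loci. Between ESC7 and ESC3 5830 loci had an adjusted p under 0.05 (44.6%), beside 3186 (24.4%) between ESC3 and ESC11 and 4368 (33.4%) between ESC7 and ESC11. These comparisons share libraries. Of the 1379 loci that rose or fell, 520 (37.7%) also differed between ESC7 and ESC3, but 27 (1.96%) by at least 1 on the log2 scale, which 308 of all tested loci (2.36%) did. In 886 (64.2%) each line passed against ESC11 by itself, 530 of the higher (63.9%) and 356 of the lower loci (64.8%).

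Loci that rose or fell were spread over the chromosomes. The share of higher loci ran from 4.73% on chromosome 10 to 10.3% on chromosome 16, and that of lower loci from 3.35% on chromosome 15 to 6.11% on chromosome 8. The median log2 difference of a chromosome lay between -0.01 and 0.03. On the X chromosome 35 of 428 tested loci were higher (8.18%) and 16 lower (3.74%), and its median was 0.02. Shares of loci that overlap another locus were 35.4% among higher, 33.3% among lower and 32.7% among all tested loci.

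**Figure D5:**
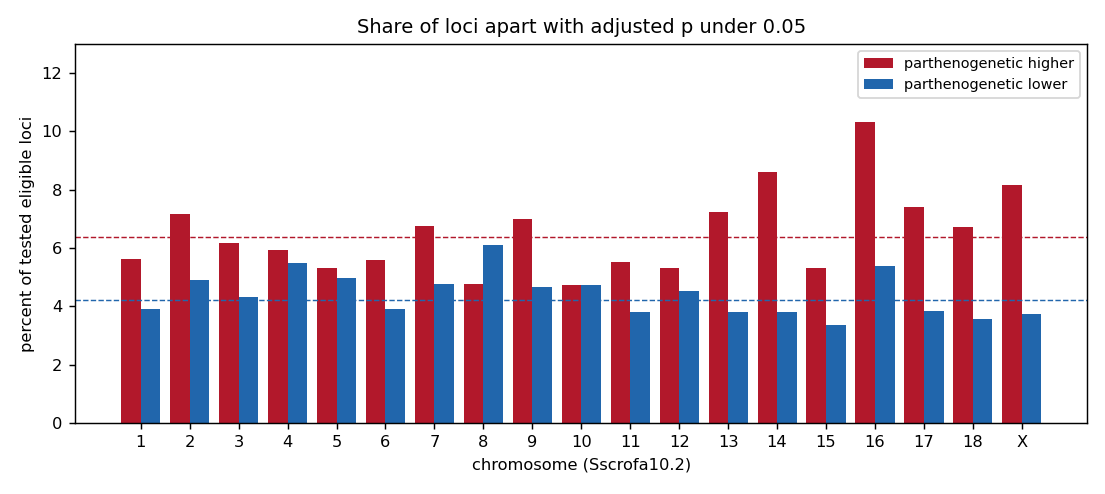
Percent of the tested eligible loci of each chromosome of Sscrofa10.2 that stood apart with an adjusted p under 0.05, higher in red and lower in blue, with dashed lines at the shares over all loci. Chromosome 16 has the highest red bar, at 10.3%, and chromosome 8 the highest blue bar, at 6.11%.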

How the data were processed

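FPKM values of 12 libraries on 30012 loci were computed and deposited by the authors. Tools named in the submitters' processing notes are Cufflinks 2.1.1 and STAR 2.4.0b, with the build Sscrofa10.2 and no role for either tool; strand setting and the handling of multiply mapped fragments are not given in the sources used here. The table holds no counts, so depth is unknown, no counting interval can be given, and exact zeros may be failed estimates. Coordinates are those of the deposited table.

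Values entered the fit as log2(FPKM + 1) with no scaling of libraries, which understates the change of low genes. Loci were tested where 3 or more libraries reached 1 FPKM (18278, of which 13059 were eligible). All 12 libraries and 4 group means were fitted with limma 3.58.1 in R 4.3.3, with a variance trend. The mean of ESC3 and ESC7 was compared with ESC11, two-sided, with Benjamini-Hochberg adjustment over all tested loci. Errors are SD beside FPKM and SE beside log2 differences.

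The members, the 36 gene lists and the tests were chosen with earlier results of these data known. Named genes were 5 given markers, up to 12 loci per direction with the largest difference and a mean of at least 5 FPKM, up to 10 near 2-fold per direction by adjusted p with a mean of at least 10 FPKM, eligible imprinted genes, and up to 4 called members of each other list. Not every gene that this rule names is reported here. A symbol on several loci was taken on the locus with the highest ESC mean. Neighbouring and copy loci, CPQ, SDC2, LDLRAD3, ABT1 and members of lists past the limit were added after values were seen. Alternatives covered pseudocounts, filters, scalings, thresholds, fits and each library left out, and the model was tested on simulated data. The simulated parthenogenetic lines had equal means, so that test did not cover differences between lines. Python 3.11.15, numpy 2.4.6, pandas 2.3.3 and matplotlib 3.10.9 made tables and plots.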

Additional observations from a re-analysis of the deposited data

Results flagged for a closer look

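The parthenogenetic lines differed from each other in the same contrast with ESC11 by at least 1 on the log2 scale in 13 of the named genes (limma, test of ESC7 against ESC3, adjusted p under 0.05). Lower in ESC7 than in ESC3 were MAGEL2 (-3.81), QTRT1 (-3.01), MX1 (-2.94), MEST (-2.22), MKRN3 (-1.80), VTI1A (-1.46), PEG3 (-1.41), CCT6B (-1.22), ABCC3 (-1.12) and CYP26A1 (-1.10). Of these 10, the paternally expressed MAGEL2, MEST and MKRN3 had all ESC3 values above all ESC11 values, and PEG3 had ESC3 between ESC7 and ESC11. CYP26A1, which breaks down retinoic acid, had 2.39, 1.75 and 2.08 FPKM in ESC3, 0.365, 0.591 and 0.333 in ESC7, beside 0.209, 0.191 and 0.215 in ESC11. Higher in ESC7 than in ESC3 were MUCAP_PIG (3.69), TNFRSF10B (1.27) and SLC1A3 (1.27). Each line is 1 derivation, so what sets the lines apart was not tested.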

How the results depend on the processing

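Of 96 named loci that were called, 66 were called under every alternative that kept them, and 12 lost the call when some 1 library was left out. With each library left out, the count of higher loci was 690 to 944 (830 with all), of lower loci 463 to 581 (549), near 2-fold 78 to 91 and 50 to 57, of paternally expressed genes that fell 7 to 7, of maternally expressed genes that rose 0 to 0, and of loci that also differed between the lines 463 to 629 (520). Quantile normalization gave 970 lower and 108 lower near 2-fold; the cause was not tested. An adjusted p under 0.01 gave 553 higher, and 332 that differed between the lines. Requiring each line to pass gave 530 higher, 356 lower and 307 that differed. With this condition 22 named loci lost the call. Among them were BAMBI, BLCAP, DNMT3B, FOXA1, HSPA8, IGFBP4, IGFBP6, MCM2, MX2, OAS2 and UQCRFS1. Without the condition on overlap there were 1549, 1087 and 1622. Annotated loci without their extended forms, a much smaller table, gave 88 higher, 79 lower, 13 and 5 near 2-fold, 0 paternally expressed and 61 that differed between the lines. Loci that overlap no other locus, an alternative chosen after seeing the data, gave 536 higher, 28 lower near 2-fold and 2 paternally expressed. The 9 ESC libraries alone gave 1 maternally expressed gene that rose, CD81.

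Among genes that were not called, PON2 turned to -0.082 with a pseudocount of 0.1, and GNAS to -0.40 and CD81 to -0.020 with quantile normalization. With each library left out in turn, some turned sign, with ranges of -0.0982 to 0.0381 for Zfat, -0.029 to 0.104 for SLC38A4, -0.0747 to 0.049 for ATP10A, -0.149 to 0.482 for PHLDA2, -0.0396 to 0.0474 for PON2, -0.0212 to 0.231 for TRAPPC9 and -0.1125 to 0.0002 for OSBPL5. With the replicate number as a block, 778 loci were higher, 518 lower, 75 and 49 near 2-fold, 7 paternally expressed genes fell, 0 maternally expressed genes rose and 492 loci differed between the lines. No strong pairing by number was seen. Libraries with the same number correlated by -0.007 to 0.080 in their deviations, and 0 of 9 such pairs exceeded 0.1. Those with unlike numbers correlated by -0.081 to 0.059, and whether the numbers stand for a weak shared batch was not tested. Depth is unknown, so the precision of low values, such as those near 0 in SNRPN or NAP1L5, cannot be given.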
